A study of Mus musculus with 42 samples.

Results

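Embryoid bodies grown for 2 days from germline-derived pluripotent stem cells (GPSCs) were compared with embryoid bodies of the same age grown from embryonic stem (ES) cells, on 6 of the 42 arrays of a mouse BeadChip series. The members were taken by their titles: 2 arrays of GPSC-A, 2 of GPSC-B and 2 of ES cells. GPSCs are lines obtained from germline cells that behave like ES cells in culture, and the labels call GPSC-A and GPSC-B lots A and B of one cell type. All 6 cultures were embryoid bodies kept in a hepatic differentiation cocktail. Each had an untreated counterpart at day 0 (NT), also with 2 arrays, and the 6 NT arrays were used to set aside differences that preceded the culture. The strain, the name of the ES line, the germ cells behind each lot, the feeder layer if any and the make-up of the cocktail are given in no label used here. One ES line stands against 2 GPSC lots, so cell origin and the properties of single lines cannot be told apart. The labels number 2 arrays per group without saying that they came from separate cultures, so a p-value here covers the spread between arrays alone, possibly a technical one.

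Mouse ES cells in the naive state resemble the epiblast of the blastocyst. They are held there by leukaemia inhibitory factor (LIF) acting through Stat3 and by a network of transcription factors that includes Nanog, Esrrb, Tfcp2l1 and the Krüppel-like factors Klf2, Klf4 and Klf5. When LIF is withdrawn and FGF signalling through ERK prevails, this network is shut off within a few days, genes of the post-implantation epiblast such as Fgf5, Otx2, Pou3f1 and Dnmt3b come on, and genes of the primitive streak such as Eomes and Gsc follow. The general pluripotency factor Pou5f1 (Oct4) stays on through the first of these steps. The comparison asks whether that exit was slower in the GPSC cultures.

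Promoter sequence is shown for 3 genes, Tfcp2l1, Zfp42 and Gsc. The fall of Tfcp2l1 and of Zfp42 (Rex1, a classical marker of the naive state) from NT was called in ES cells and in neither GPSC lot. Both of these genes were set aside for lower levels in untreated GPSCs. Gsc, a homeobox gene of the primitive streak, was above background at day 2 in ES embryoid bodies alone. Each window holds the 250 bases before the annotated start in RefSeq, build GRCm38.p6, written 5′ to 3′ along the gene. They lie at chr1:118627695-118627944 (plus strand, Tfcp2l1), chr8:43307010-43307259 (minus strand, Zfp42) and chr12:104473237-104473486 (minus strand, Gsc). Capitals mark matches on either strand to ATGCAAAT (the octamer of POU factors such as Pou5f1), GGGCGTGG or GGGTGTGG (forms of the Klf4 motif), the GC box GGGCGG and the TATA box.
Tfcp2l1: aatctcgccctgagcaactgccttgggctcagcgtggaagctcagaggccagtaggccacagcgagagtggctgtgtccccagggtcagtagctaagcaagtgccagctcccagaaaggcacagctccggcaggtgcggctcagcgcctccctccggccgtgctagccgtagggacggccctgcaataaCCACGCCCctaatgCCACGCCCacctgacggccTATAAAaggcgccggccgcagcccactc
Zfp42: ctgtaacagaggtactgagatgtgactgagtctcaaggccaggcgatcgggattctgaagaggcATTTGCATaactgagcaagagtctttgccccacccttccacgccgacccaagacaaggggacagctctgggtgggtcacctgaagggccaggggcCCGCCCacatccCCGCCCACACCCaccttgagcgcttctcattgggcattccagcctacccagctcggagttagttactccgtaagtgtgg
Gsc: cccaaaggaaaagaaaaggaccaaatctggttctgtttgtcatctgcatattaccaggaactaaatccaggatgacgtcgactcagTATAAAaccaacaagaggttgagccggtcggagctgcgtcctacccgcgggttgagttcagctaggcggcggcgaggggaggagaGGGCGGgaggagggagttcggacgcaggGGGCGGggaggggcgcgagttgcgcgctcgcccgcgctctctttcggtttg
Counted back from the start, the Tfcp2l1 window held GGGCGTGG from -61 to -54 and from -47 to -40, both on the opposite strand, and a TATA box, TATAAA, from -28 to -23. In Zfp42 the octamer lay from -186 to -179 and GGGTGTGG from -75 to -68, where it shares bases with 1 of 2 GC boxes. Gsc had 2 GC boxes and a TATA box from -164 to -159, and neither Klf4 form. Windows were at hand for 13 of the 22 naive genes tested and 11 of the 14 streak genes tested. A gene was counted once if any of its windows held the motif, whereas the shares over all are of single windows. The counts and the shares are thus unlike measures, and a gene with several windows has more room for a match. GGGCGTGG was found for 3 of the 13 naive genes (Nanog, Nr5a2, Tfcp2l1) and 0 of the 11 streak genes, and in 4.79% of all 32851 windows. GGGTGTGG was found for 1 naive gene, 0 streak genes and in 3.20% of all windows. The octamer was found for 1 naive gene, for 3 streak genes and in 1.60% of all windows, the GC box for 8, 2 and in 32.7%, and the TATA box for 2, 2 and in 12.4%. These are matches of letters, not sites shown to be bound.

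The values are log2 signals after background correction and quantile normalisation, for 10879 genes with a detected probe, and a value is compared between arrays only within 1 probe. A gene was called when its Benjamini-Hochberg adjusted p was under 0.05 in limma's moderated test over all genes and its change was at least 2-fold. At day 2 the arrays detected 9873 to 13463 of 45281 probes, and ES replicate 2 had the fewest. The 2 ES arrays correlated at 0.969 across genes. The replicate 1 arrays of the GPSC lots correlated at 0.985 with each other, above 0.966 for the GPSC-A pair and 0.965 for the GPSC-B pair. Leaving out ES replicate 2 lowered the calls at day 2 from 2.88% higher and 1.14% lower to 1.42% and 0.358% of all genes, and its effect on the gene lists is given where it changed a count.

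Genes of the naive network were higher in the GPSC cultures at day 2. Of 27 genes listed for it, 22 passed the detection filter (Nr0b1, Tet2, Dppa2, Nlrp4f and Tdh did not). The call was reached by 9 of the 22 as higher in GPSC and by 0 as lower, against 2.88% of all genes higher and 1.14% lower (4.02% in all, 313 and 124 genes). The 9 were Klf2, Esrrb, Tfcp2l1, Zfp42, Prdm14, Tcl1, Dppa3, Fbxo15 and Pecam1, and for 5 of them (Tfcp2l1, Prdm14, Tcl1, Dppa3 and Pecam1) ES replicate 2 was not above background. All 4 GPSC arrays lay above both ES arrays for 14 of the 22, against 10.4% of all genes. The median GPSC minus ES difference of the list was 1.07 on the log2 scale, against -0.017 over all genes. Without ES replicate 2 only Dppa3 and Fbxo15 were called (9.09% of the list, against 1.42% of all genes), and the median was 0.70. On arrays scaled to a common median, all genes had a median of 0.29 and the list one of 1.33, with 11 members called.

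**Figure D1:**
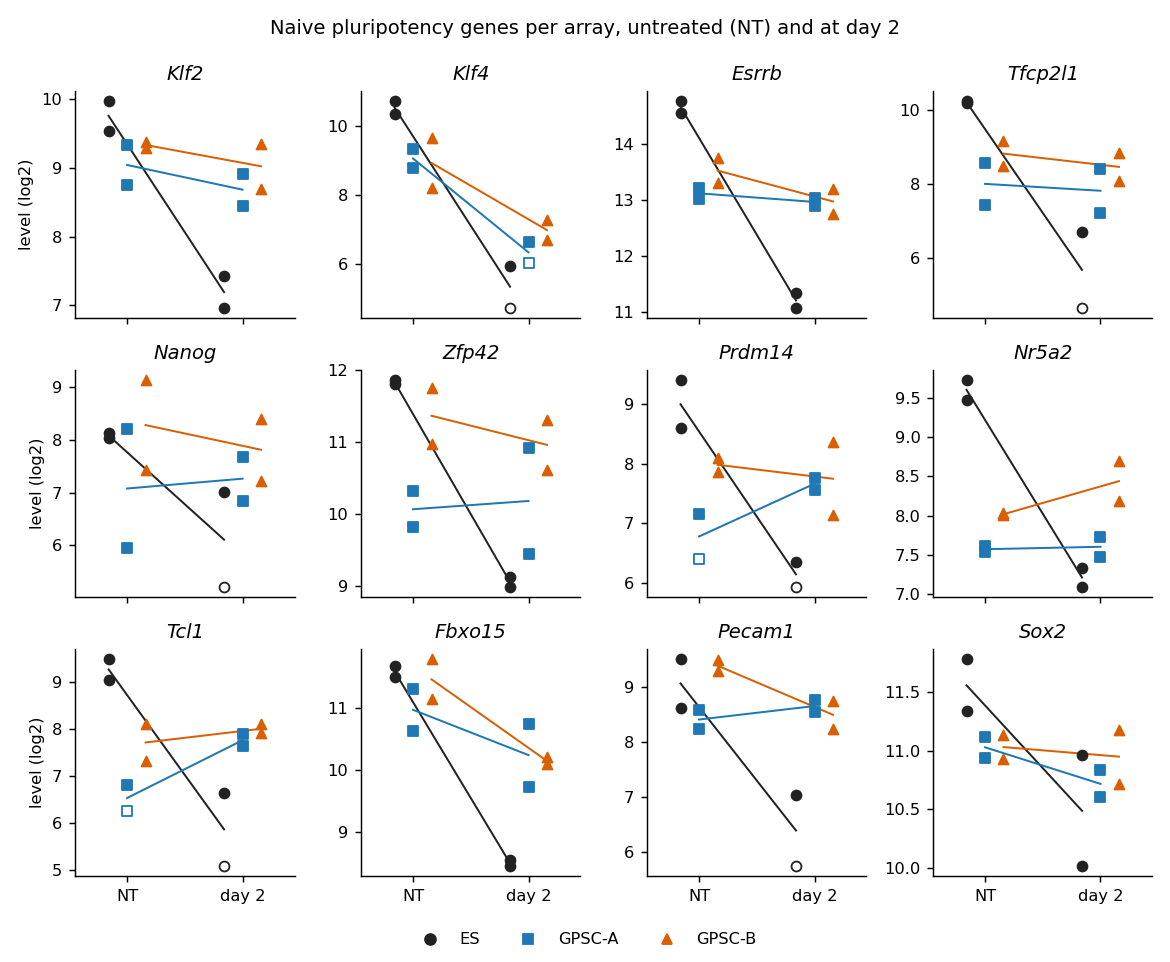
Log2 signal of naive pluripotency genes on each of the 6 untreated (NT) and 6 day 2 arrays, for ES cells, GPSC-A and GPSC-B; filled points were detected above background, open points were not, and lines join the group means. The ES values drop from NT to day 2, while most GPSC values keep near their NT level.

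Tfcp2l1, a transcription factor of the network downstream of LIF, measured 10.18 and 10.24 on the untreated ES arrays and 6.71 and 4.66 on the day 2 ES arrays. GPSC-A gave 7.43 and 8.58 untreated and 7.23 and 8.41 at day 2, and GPSC-B gave 8.48 and 9.17, then 8.09 and 8.84. The untreated ES arrays were thus the highest of the 12 and the day 2 ES arrays the lowest, with replicate 2 not above background. The day 2 difference was 2.46 ± 0.51 (SE, 2 ES and 4 GPSC arrays, adjusted p = 0.00259), 5.50-fold, while at NT the GPSC mean was 1.80 below ES on the log2 scale.

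Zfp42 stood at 11.80 and 11.86 in untreated ES cells and at 9.13 and 8.99 at day 2. In GPSC-A it was 9.82 and 10.32, then 9.45 and 10.92, and in GPSC-B 10.97 and 11.76, then 10.61 and 11.31. No GPSC array of day 2 reached down to the ES values. The day 2 difference was 1.51 ± 0.34 (adjusted p = 0.00539). Tcl1, a coactivator of Akt kinases, read 6.64 and 5.08 on the day 2 ES arrays, 7.89 and 7.63 for lot A, and 8.10 and 7.91 for lot B. Here too the groups did not overlap, and the difference was 2.02 ± 0.32 (adjusted p = 8.27e-05), although untreated GPSCs had 2.15 less than untreated ES cells on the log2 scale. Prdm14, which holds back FGF signalling and DNA methylation in naive cells, differed by 1.56 ± 0.33 and Esrrb, an orphan nuclear receptor, by 1.77 ± 0.50.

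Many of these genes already differed before the culture. Over all genes, 609 differed by at least 2-fold between untreated GPSC and ES cells (297 higher and 312 lower in GPSC) and were set aside, and 30.7% of them were called at day 2 (23.5% higher and 7.22% lower). Of the 22 naive genes, 10 were set aside for lower levels in GPSC (Klf4, Klf5, Esrrb, Tfcp2l1, Zfp42, Prdm14, Nr5a2, Tcl1, Jam2 and Spic), and Dppa3 for a higher one. Spic, at -1.04, and Zfp42, at -1.11, lay just inside that limit, and Tbx3, at -0.80, and Klf2, at -0.57, just outside it. At NT the list held 1 member called higher and 8 called lower in GPSC, with a median difference of -0.69, against 1.57% of all genes higher and 1.66% lower (3.24% in all). Among the 10270 genes kept, 170 were higher and 80 lower at day 2 (2.43%, or 1.66% and 0.779%).

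Klf2, Fbxo15 and Pecam1 were the naive genes that were kept and called, 3 of 11, with a median over the 11 of 0.65 against -0.023 over all kept genes. All 4 GPSC arrays lay above both ES arrays for 5 of the 11, against 9.07% of kept genes. Klf2 measured 7.42 and 6.97 on the ES arrays, 8.45 and 8.92 for lot A, and 8.70 and 9.35 for lot B. Every GPSC array was above both ES arrays, by 1.66 ± 0.40 between the means (adjusted p = 0.00999). Fbxo15, an F-box gene controlled by Oct4 and Sox2 in ES cells, measured 8.55 and 8.45 in ES, 9.74 and 10.75 for lot A, and 10.09 and 10.21 for lot B. The gap was 1.69 ± 0.31 (adjusted p = 0.000528), or 3.24-fold, a second probe for the gene was called the same way, and the call held without ES replicate 2.

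Pecam1, an adhesion molecule of inner cell mass and endothelium, was at 7.04 and 5.75 in ES, 8.55 and 8.77 for lot A, and 8.75 and 8.25 for lot B. Again the GPSC arrays lay above both ES arrays, by 2.19 ± 0.38 (adjusted p = 0.000324). Its second probe differed by 0.82 and was not called. Of 23 genes tested in the endothelial and blood list, Pecam1 was the 1 called (4.35%, against 2.88% of all genes higher).

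The remaining 8 kept members were not called. Nanog differed by 1.43 ± 0.46 (adjusted p = 0.0772), with 7.01 and 5.21 in ES against 6.85 to 8.40 in GPSC, so the groups overlapped. Mybl2 differed by 0.80, Fgf4 by 0.65, Dppa4 by 0.48, Gbx2 by 0.36, Sox2 by 0.35, and Tbx3 and Dppa5a each by 0.19. Dppa5a read between 15.38 and 15.996 on all 6 arrays, whose highest gene values were 16.04 or 16.06, so it sat near the top of the scale, where a difference is poorly measured. Tbx3 was above background on 1 of the 6. Set-aside members that were not called at day 2 were Klf4 (1.32 ± 0.42, called with the replicate number as a block at adjusted p = 0.00488 in limma), Nr5a2 (0.81), Klf5 (0.77), Jam2 (0.76) and Spic, whose difference of -0.40 was the 1 negative value of the 22.

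**Figure D2:**
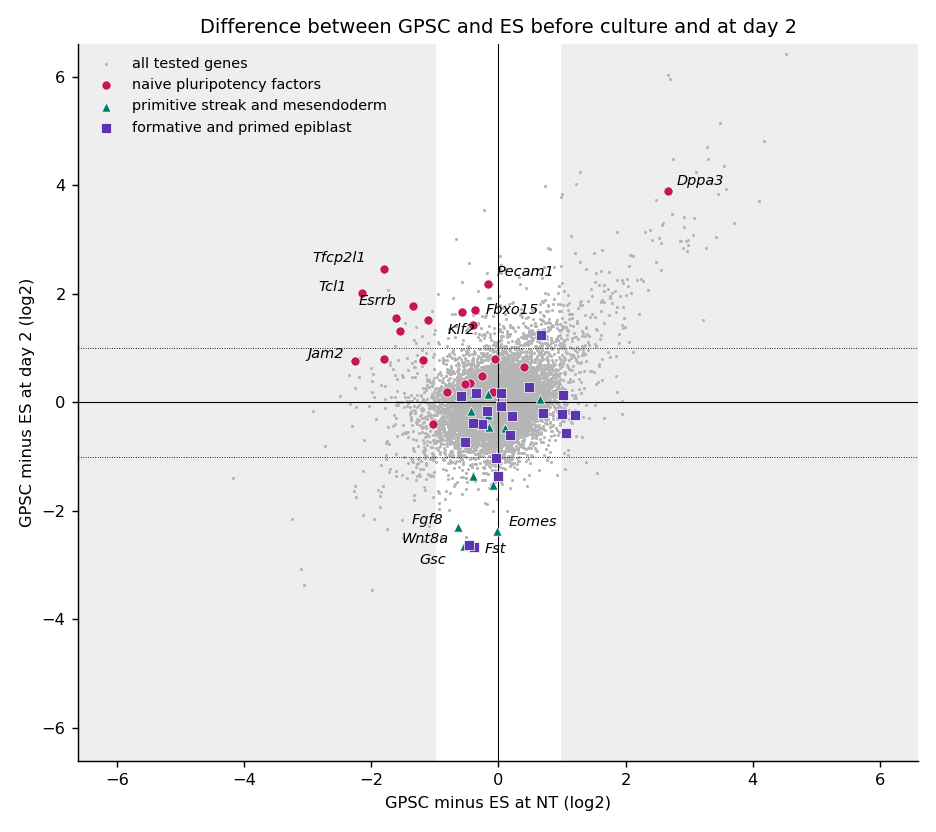
GPSC minus ES difference (log2) at NT on the horizontal axis and at day 2 on the vertical axis, for all 10879 tested genes (grey) and 3 gene lists (coloured); shaded sides hold the genes set aside at NT, and dotted lines mark a 2-fold difference at day 2. Naive genes spread to the upper left, lower than ES at NT and higher at day 2, and Fst, Wnt8a, Fgf8, Gsc and Eomes lie below the lower line with an NT difference under 2-fold.

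Because of the NT differences, the change from NT to day 2 was compared directly between GPSC and ES as an interaction. Of the 22 naive genes, 15 fell from NT to day 2 in ES cells (median change -2.47), 2 in lot A (Klf4 and Tbx3, median -0.063) and 1 in lot B (Klf4, median -0.35), or 2 in lot B with the replicate number as a block. Over all genes 5.45%, 2.38% and 1.48% fell (8.02%, 2.95% and 1.65% changed either way), with medians of 0.0066, 0.039 and 0.021. The change differed for 11 of the 22, all less negative or positive in GPSC, against 0.882% of all genes (83 higher and 13 lower, and 152 in all with the replicate number as a block). Among genes set aside at NT the share was 9.03% (8.21% higher and 0.821% lower), and among kept genes 0.399%. For a set-aside gene the interaction also holds the NT difference by which it was set aside. The median interaction of the list was 2.02, against 0.013 over all genes. The NT and day 2 comparisons enter the interaction with the same arrays, so the 3 counts are not independent of each other.

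The 11 genes were Tfcp2l1 (4.25 ± 0.73), Tcl1 (4.17 ± 0.45), Prdm14 (3.18), Esrrb (3.11), Jam2 (3.02), Klf4 (2.87), Zfp42 (2.63), Nr5a2 (2.61), Pecam1 (2.36), Fbxo15 (2.07) and Klf5 (1.97). Only Pecam1 and Fbxo15 belong to the 11 kept genes, whose median interaction was 0.87, against 0.399% of all kept genes called (0.321% higher and 0.0779% lower). Over all kept genes that was 33 higher and 8 lower, or 59 and 15 with the replicate block. Klf2 missed the threshold at 2.23 ± 0.56 (adjusted p = 0.0539, or 0.0464 with the replicate block), as did Nanog at 1.84 (adjusted p = 0.292). A second Jam2 probe was called the same way, whereas second probes of Klf4 (1.84), Nr5a2 (0.12), Pecam1 (0.87) and Fbxo15 (2.21) were not called. Neither kept gene thus had its interaction called by another probe. Prdm14 shows the pattern on single arrays: 9.40 and 8.59 in untreated ES cells fell to 6.36 and 5.93, while GPSC-A went from 7.16 and 6.396 to 7.77 and 7.56 and GPSC-B from 8.10 and 7.86 to 8.36 and 7.13. The GPSC values of the 2 days overlapped, and both ES values of day 2 were below all of them.

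Klf4 did fall in every line. It went from 10.74 and 10.35 to 5.95 and 4.72 in ES, from 9.33 and 8.80 to 6.64 and 6.02 in GPSC-A, and from 9.65 and 8.21 to 7.28 and 6.68 in GPSC-B. The changes were -5.21, -2.73 and -1.95. Without ES replicate 2 the interaction was called for 3 naive genes (Zfp42, Prdm14 and Tcl1) and for 24 genes in all. Zfp42, Prdm14 and Tcl1 had all been set aside at NT, so none of them is a kept gene. A fit to the 12 NT and day 2 arrays alone, with fewer arrays behind the spread, also called 3 naive genes and 8 genes in all.

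Each lot was also set against ES cells by itself. Lot A had 6 naive genes higher (median 0.82) and lot B 8 (median 1.48), and neither had 1 lower. The counts were 1 and 2 without ES replicate 2. Over all genes lot A had 2.74% called (1.99% higher and 0.754% lower, median -0.023) and lot B 3.47% (2.59% and 0.882%, median -0.016). These comparisons share the 2 ES arrays. None of the 22 was called between GPSC-B and GPSC-A (median 0.33), where 0.211% of all genes were called.

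By day 7 the naive genes had fallen in the GPSC cultures too. From day 2 to day 7, 18 of the 22 were lower in GPSC and Tbx3, a T-box factor also used in later tissues, was higher, with a median change of -2.35, against 5.92% of all genes lower and 8.19% higher (14.1% in all) and a median of -0.027. Means of 2 arrays give the levels of each line at that age. Zfp42 averaged 4.91 in ES cells at day 7, 8.21 in lot A and 7.26 in lot B. Esrrb averaged 7.37, 11.49 and 9.48 in the same order, Fbxo15 5.26, 8.36 and 6.71, and Dppa3 4.72, 8.53 and 6.96. In these 4 genes GPSC-A was the highest line at day 7, a difference for which no test was run. Pecam1 ran the other way at that age, at 8.65 in ES cells and at 6.58 and 6.28 in lots A and B. Nanog, Prdm14 and Tcl1 were then not above background in ES cells or in lot B, nor was Jam2 in any line. Dppa3 had already been higher in GPSC at NT.

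**Figure D3:**
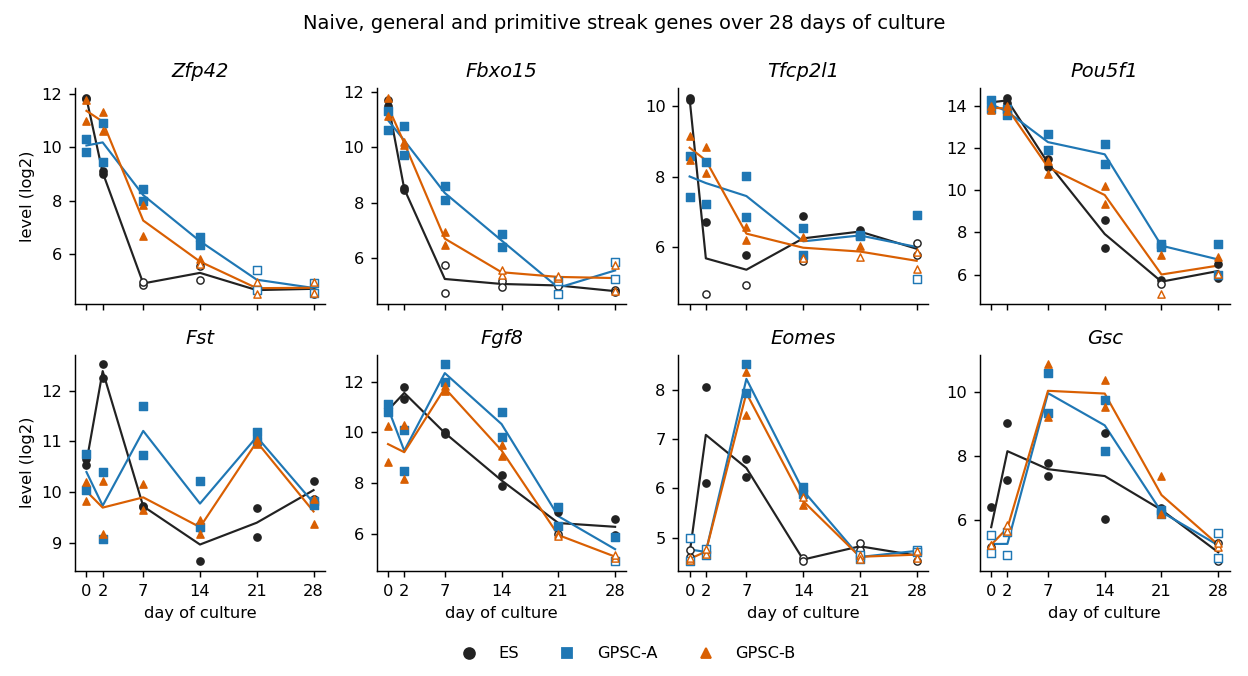
Log2 signal over the days of embryoid body culture for naive, epiblast and streak genes in ES, GPSC-A and GPSC-B; points are single arrays (filled detected, open not) and lines join the means of 2 arrays. The ES line lies lowest for Zfp42 at days 2 and 7 (4.91 at day 7, against 8.21 and 7.26), and Gsc is above background on both arrays from day 2 in ES (and on 1 of 2 untreated ES arrays) and by day 7 in the lots.

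Of 13 genes tested that LIF and Stat3 control, Gadd45g (1.34 ± 0.32) and Ier3 (1.097 ± 0.27), both early response genes, were higher in GPSC at day 2 (15.4%, against 2.88% of all genes) and 0 were lower, with a median of 0.33. Neither was called without ES replicate 2, and a second Gadd45g probe (1.49) was not called. From NT to day 2, 7 of the 13 fell in ES cells, 3 in lot A and 1 in lot B, against 5.45%, 2.38% and 1.48% of all genes, and the interaction was called for 0. Stat3 itself read 9.07 and 9.34 in ES against 9.31 to 10.26 in GPSC, and was not called (0.39 ± 0.25), but a second Stat3 probe was called both at day 2 (1.12) and in the interaction (1.89). Socs3, the feedback inhibitor of the pathway, was detected on all 4 GPSC arrays (6.38 to 6.85) and on neither ES array (5.35 and 5.38), which bounds the difference at 1.26-fold or more; it was not called (adjusted p = 0.276, or 0.00672 with the replicate block).

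Of 19 general pluripotency factors tested, 2 were higher in GPSC (10.5%, against 2.88% of all genes) and 0 lower, with a median of 0.16. The 1 kept was Terf1, a telomere-binding protein, at 1.09 ± 0.24. The other, Sall4, a zinc finger factor, had been set aside at NT, and its call was lost without ES replicate 2. Pou5f1 measured 14.38 and 14.12 in ES, 13.57 and 13.86 for lot A, and 14.00 and 13.73 for lot B. All GPSC values were slightly below the ES values, and the difference of -0.46 ± 0.46 was not called (adjusted p = 0.814). From NT to day 2 Pou5f1 changed by 0.09 in ES cells, by -0.35 in lot A and by -0.03 in lot B.

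Of 27 listed epiblast genes, which replace the naive network, 21 were tested. At day 2, 0 were higher and 2 lower in GPSC (9.52%, against 1.14% of all genes lower), with a median of -0.23. Fgf5, the ligand that marks the post-implantation epiblast, read 8.84 and 8.96 in ES, 7.996 and 8.60 for lot A, and 7.83 and 8.92 for lot B. These ranges overlap, with a difference of -0.56 ± 0.44 (adjusted p = 0.717). Otx2 (0.29), Pou3f1 (0.14), Dnmt3b (-0.20), Cldn6 (-0.23), Sox3 (-0.25), Sall2 (-0.60), Zic2 (-0.73), Epha1 (-1.03), Tead2 (-0.39), Etv4 (-0.15), Etv5 (0.12), Foxd3 (-0.22) and Lef1 (-1.35) were not called either, though Lef1 was with the replicate block (adjusted p = 0.0412). Another Epha1 probe was called lower in GPSC at day 2 (-1.81) and in the interaction (-2.46), while those at -1.23 and -0.48 at day 2 were not. Krt18 was above background in GPSC alone, by at least 1.12-fold, and not called. Car4 was above background on 1 of the 6 arrays, and Cdh2, Cer1 and Nkx1-2 on none. Between NT and day 2 the rise was called for 8 members in ES, for Otx2 in lot A and for 0 in lot B, with medians of 1.30, 0.21 and 0.47, against 2.57%, 0.57% and 0.175% of all genes. The rise was called for 5 in ES without its replicate 2. The interaction was called for 2 members. Fgf5, Pou3f1 and Cldn6 had been set aside because untreated GPSCs already held 1.06, 1.02 and 1.21 more of them on the log2 scale.

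The 2 lower genes were Fst (follistatin, which binds and blocks activin) and Wnt8a, a Wnt ligand of the early streak. Fst measured 12.25 and 12.52 in ES embryoid bodies, 10.40 and 9.07 for lot A, and 10.22 and 9.17 for lot B. The ES arrays were far above all GPSC arrays, and the difference was -2.67 ± 0.36 (adjusted p = 6.49e-06), 6.35-fold higher in ES. For Wnt8a the values were 10.84 and 11.45, then 9.19 and 8.15, then 8.88 and 7.85. The groups again lay apart, by -2.63 ± 0.34 (adjusted p = 4.12e-06), and 2 further Wnt8a probes were called the same way. The rise of both genes from NT was called in ES (1.79 and 1.24) and in neither lot, and their interactions of -2.28 and -2.16 were called. The day 2 calls held without ES replicate 2, the interactions did not.

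Of 22 primitive streak genes listed, 14 were tested and 0 were set aside. At day 2, 3 were lower in GPSC (Eomes, Gsc and Fgf8; 21.4%, against 1.14% of all genes), 0 were higher and 11 were not called, with a median of -0.42. All 4 GPSC arrays lay below both ES arrays for 5 of the 14, against 11.7% of all genes. Eomes, a T-box factor of mesendoderm, measured 6.12 and 8.05 in ES and 4.65 to 4.77 on the 4 GPSC arrays, where it was not above background. ES cells thus held at least 2.11-fold more (adjusted p = 3.45e-06), and the 2 ES arrays differed more from each other than the 4 GPSC arrays. Gsc, whose promoter is printed above, read 7.25 and 9.03 in ES and 4.89 to 5.82 in GPSC, also not above background there, at least 4.37-fold less (adjusted p = 0.00425). Fgf8, the ligand that drives cells through the streak, read 11.31 and 11.80 in ES, 10.08 and 8.48 for lot A, and 10.28 and 8.17 for lot B, a difference of -2.30 ± 0.46 (adjusted p = 0.00171). Replicate 1 of each lot was nearer to ES than replicate 2.

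Evx1 (-1.35) and Lhx1 (-1.53) were not called (Evx1 was with the replicate block, adjusted p = 0.0107), and ES replicate 1 lay within the GPSC range for both. The interaction was called for Eomes (-2.36 ± 0.43) and for no other streak gene. Without ES replicate 2, Eomes alone was called at day 2. By day 7, 10 of the 14 had risen in GPSC, against 8.19% of all genes, with a median change of 1.98. Eomes then averaged 8.22 in lot A, 7.93 in lot B and 6.41 in ES, Gsc 9.95, 10.02 and 7.58, Lhx1 12.54, 12.08 and 9.605, and Mixl1 8.31, 7.66 and 5.66. At that age both lots were above ES cells for these 4 genes, with no test run.

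Regulators around the streak varied. In the Wnt response list 3 of 17 were lower in GPSC (17.6%, against 1.14% of all genes), Wnt8a and the Wnt antagonist Nkd1 (-1.79 ± 0.36) among the kept genes, and 0 were higher (median -0.24). A second Nkd1 probe (-0.78) was not called. Axin2, the feedback inhibitor of the pathway, had been set aside, and Nkd1 was not called without ES replicate 2. In the Nodal and BMP list 3 of 22 were lower (13.6%, against 1.14% of all genes), among them Fst and the BMP antagonist Chrd (-1.30 ± 0.37). In that list 1 was higher (4.55%, against 2.88% of all genes, list median -0.040). Msx1, a BMP target, had been set aside, and without ES replicate 2 Fst alone was lower. The higher gene was Pcsk6, a protease that activates Nodal, at 7.95 and 7.96 in ES and 9.13 to 9.74 in GPSC. The ranges lie apart by 1.40 ± 0.21 (adjusted p = 3.60e-05), but another Pcsk6 probe differed by -0.60 and was not called. In the FGF and ERK list 1 of 19 was higher (Ier3) and 1 lower (Fgf8), 5.26% each way, both lost without ES replicate 2. Neural genes gave 0 calls of 14, with a median of -0.41.

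**Figure D4:**
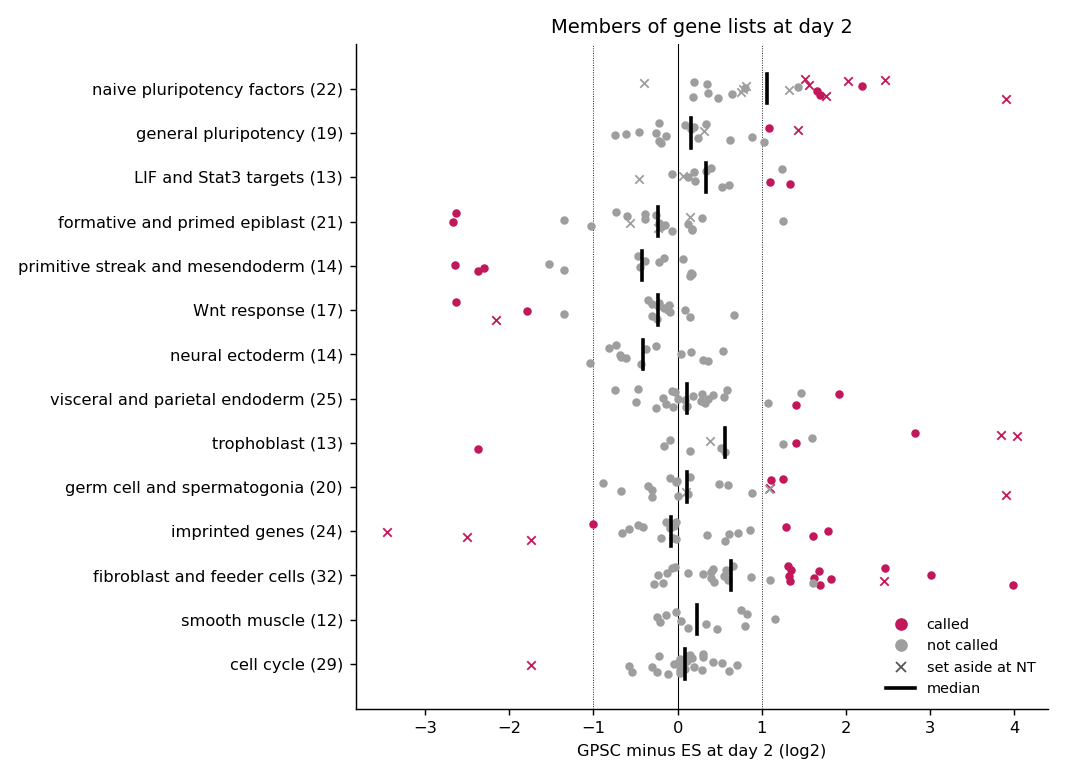
GPSC minus ES difference at day 2 (log2) of each tested member of the gene lists, 1 row per list; crosses are members set aside at NT and the bar is the list median. The naive list lies to the right of 0 with a median of 1.07, the fibroblast list at 0.63 and the streak list at -0.42.

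The genes that changed in ES cells between NT and day 7 were also followed (15.6% of all genes, 7.86% lower and 7.69% higher). Of 855 that fell by day 7, 117 (13.7%) were higher in GPSC than in ES at day 2 and 22 (2.57%) lower, against 2.88% and 1.14% of all genes. After the set-aside, 74 of 671 (11.03%) were higher and 12 (1.79%) lower, against 1.66% and 0.779% of all kept genes. Of 837 that rose, 18 (2.15%) were higher and 32 (3.82%) lower. Without ES replicate 2, 61 of 862 that fell (7.08%) were higher and 10 (1.16%) lower, and 7 of 841 that rose (0.832%) lay each way. Over all genes 1.42% were then higher and 0.358% lower. These figures share no GPSC array with the definition of the lists, but the ES line is the same. A list chosen by change in ES cells alone favours ES values that have moved that way by day 2. No list was drawn from changes in GPSC, so these counts cannot show by themselves that the exit was slower.

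Markers of fibroblasts and feeder cells moved with the comparison. Of 39 listed, 32 were tested, and 12 were higher in GPSC at day 2 (37.5%, against 2.88% of all genes) and 0 lower, with a median of 0.63. Biglycan (Bgn), a matrix proteoglycan, measured 7.97 and 6.31 in ES, 10.20 and 10.67 for lot A, and 11.89 and 11.72 for lot B. GPSC-B was the highest and ES the lowest, with a GPSC minus ES difference of 3.98 ± 0.41 (adjusted p = 5.25e-08). Mmp3 (3.02), Timp2 (2.46), Fbln2 (1.82) and Fn1 (1.61) were also called, although 2 other probes each of Fbln2 and Fn1 were not. Lot A had 4 of the list called against ES and lot B 11, against 1.99% and 2.59% of all genes higher. Without ES replicate 2 the count for the mean of both lots was 4 (12.5%, against 1.42% of all genes). Summed over the 32 genes, the linear signal ran from 50888 to 110880 on the 6 NT arrays. At day 2 it was 11452 and 10437 in ES, 16853 and 14770 for lot A, and 25895 and 19323 for lot B.

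These markers therefore fell in every line from NT to day 2: 20 of 32 in ES cells, 20 in lot A and 14 in lot B. Over all genes 5.45%, 2.38% and 1.48% fell. Acta2, smooth muscle actin, went from 15.21 on both untreated ES arrays to 8.85 and 9.28, while in GPSC it lay between 15.11 and 15.38 untreated and between 8.76 and 10.09 at day 2. Its day 2 difference of 0.47 was not called, nor was that of Lox (0.87). Thbs1 and Col1a1 were not above background in ES and on 1 and 2 of the 4 GPSC arrays, and were not called, Col1a1 with an adjusted p of 0.159, or 0.0326 with the replicate block. Col1a2, Col3a1, Pdgfra and Pdgfrb, also of the list, were not above background on the 6 day 2 arrays. Of all 32 members, 20 and 10 were above background in ES at day 2, 21 and 21 in lot A, and 24 and 19 in lot B. In bulk RNA, fewer cells of a type and less RNA per cell cannot be told apart. The part of these cells in the naive gene result was not tested, and the part of ES replicate 2 is given by the counts without it.

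**Figure D5:**
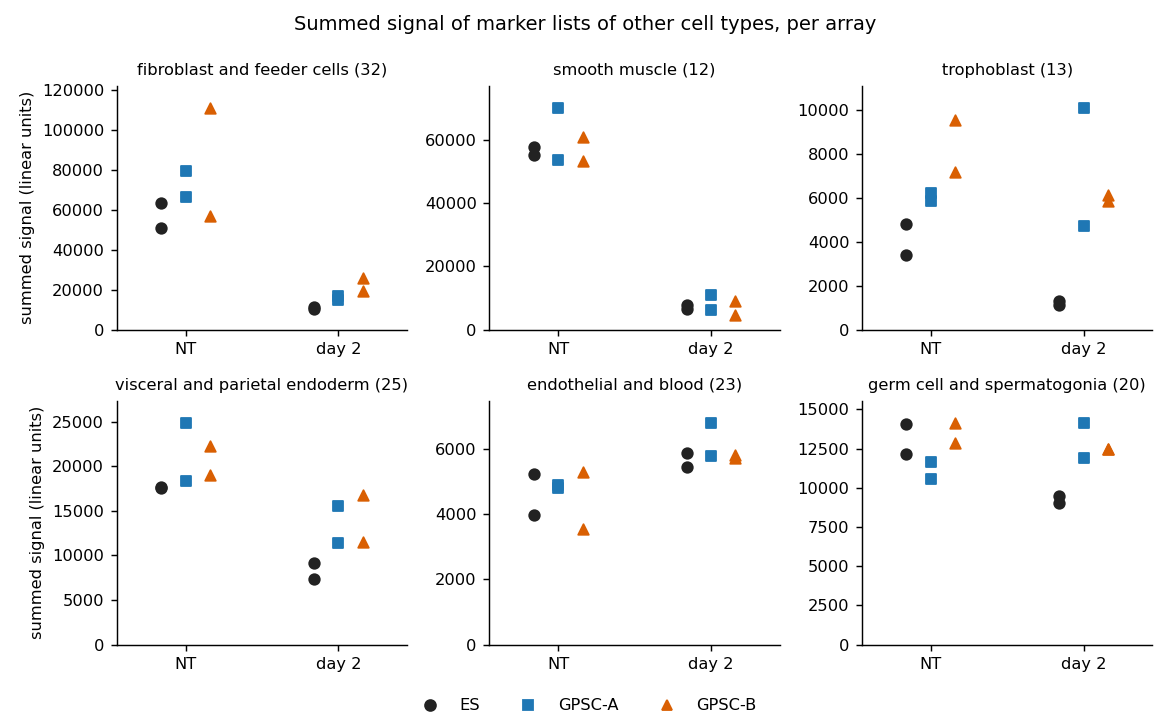
Summed linear signal of the tested members of marker lists on each NT and day 2 array of ES, GPSC-A and GPSC-B. The fibroblast sum falls from 50888 or more at NT to 25895 or less at day 2. The trophoblast sum is 3403 and 4789 in ES and 5870 to 9560 in GPSC at NT, and 1105 and 1317 in ES and 4733 to 10100 in GPSC at day 2.

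Of 13 trophoblast genes tested, 4 were higher in GPSC (30.8%, against 2.88% of all genes) and 1 (Eomes) lower (7.69%, against 1.14%), with a median of 0.56. Without ES replicate 2 the counts were 3 and 1. Tfap2c, an AP-2 factor of trophoblast and primordial germ cells that is also active in naive cells, measured 9.05 and 9.24 in ES, 11.73 and 12.47 for lot A, and 11.90 and 11.76 for lot B. The difference of 2.83 ± 0.30 (adjusted p = 7.87e-08) was called by 2 further probes and held without ES replicate 2. The keratin Krt7 was not above background in ES and on 3 of the 4 GPSC arrays, at least 1.12-fold higher, and lost its call without ES replicate 2. The X-linked homeobox genes Rhox6, not above background in ES and at least 10.2-fold higher in GPSC, and Rhox9 (3.84) were set aside at NT. The summed signal of the list, Rhox6 and Rhox9 included, was 1105 and 1317 in ES and 4733 to 10100 in GPSC. At NT it was already higher in GPSC, with 3403 and 4789 in ES and 5870 to 9560 in GPSC.

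Germ cell genes were higher in 4 of 20 (20%, against 2.88% of all genes), and without ES replicate 2 in 2 (Dppa3 and Piwil2, 10% against 1.42% of all genes). Dppa3 (Stella), which guards DNA methylation in the early embryo and in germ cells, measured 7.08 and 6.01 in ES, 10.06 and 11.36 for lot A, and 10.30 and 10.07 for lot B. It was higher in GPSC by 3.90 ± 0.36 (adjusted p = 5.79e-09), with ES replicate 2 not above background, but had been set aside with a difference of 2.66 at NT, and its interaction of 1.24 was not called. Piwil2, not above background in untreated or day 2 ES cells, had also been set aside. Among kept genes Tex19.1 (1.25) and Tdrd12 (1.11), both of the germline defence against transposons, were higher.

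Of 24 imprinted genes tested, 3 were called higher (12.5%, against 2.88% of all genes) and 4 lower (16.7%, against 1.14%), or 2 and 2 without ES replicate 2. Igf2 (1.61 ± 0.25) and Peg3 (1.29), both expressed from the paternal allele, were higher in GPSC, although a second Peg3 probe (1.01) was not called. Mest was not above background in ES and at least 1.21-fold higher in GPSC, and 2 other Mest probes were not called. Meg3 (-3.45 ± 0.32), Grb10 (-2.50) and Cdkn1c (-1.74), in most tissues expressed from the maternal allele, were lower and had been set aside at NT. A second Grb10 probe (-0.30) was not called. Rian was called lower, but none of the 6 arrays had it above background, so no difference is given. The calls of Mest, Cdkn1c and Rian were lost without ES replicate 2. Igf2 read 9.61 and 10.06 in ES and 11.01 to 11.97 in GPSC, without overlap. Meg3 read 8.54 and 8.61 in ES and 4.66 to 6.12 in GPSC, where 1 of 4 arrays was above background, also without overlap, and its NT difference was -1.99. The list median was -0.074.

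In visceral and parietal endoderm 2 of 25 were higher (against 2.88% of all genes), the lipid carrier Apoe (1.40) and the protease Plat (1.92), and Apoe alone without ES replicate 2. In surface ectoderm and keratins 3 of 14 were higher (21.4%) and 0 lower, with a median of 0.62. These were Krt7, Krt19 and Grhl3, a transcription factor of the epidermis, none of them above background in ES, with Krt19 on 2 and Grhl3 on 1 of the 4 GPSC arrays, and none called without ES replicate 2. In definitive endoderm 1 of 17 was higher (Krt19, at least 1.18-fold) and 1 lower (Trh, -1.08), both lost without that array. In the hypoxia list 3 of 22 were higher (13.6%), Vegfa (1.41) and Car12 (1.66) among the kept and the glycolytic enzyme Pkm set aside, and 0 without ES replicate 2. In the stress response list 2 of 23 were higher (8.70%, median 0.62), Xbp1 and Atf4, both set aside at NT, and Xbp1 alone without that array. Of 17 genes of the epithelial to mesenchymal transition Fn1 was higher, and of 5 two-cell like genes Tcstv1, which had been set aside; neither call held without ES replicate 2. Smooth muscle, ribosomal proteins, oxidative phosphorylation and DNA methylation and chromatin gave 0 calls of 12, 18, 29 and 23, and cell cycle 1 of 29 (Cdkn1c, lower).

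Among the kept genes called and detected on both sides, the largest rises were Bgn, Tnc (3.54), Mmp3, Wnt7b (2.84), Tfap2c, Acsbg3 (2.71), Slc28a1 (2.52), Cphx1 (2.49), B2m (2.49) and Timp2. For 8 of these 10, ES replicate 2 was not above background. Acsbg3, of the acyl-CoA synthetase family, measured 7.15 and 6.403 in ES, 9.22 and 9.27 for lot A, and 9.87 and 9.56 for lot B, with untreated values of 9.39 to 10.42 in all 3 lines. Its fall was called in ES and in neither lot, and its interaction was 2.68 ± 0.34 (adjusted p = 6.81e-05). Tenascin C (Tnc) went from 13.08 and 11.89 to 7.13 and 5.12 in ES and to 8.21 to 11.19 in GPSC, so it fell in every line, with an interaction of 3.76 ± 0.64. Of its other probes, 1 was called the same way and 4 were not. B2m, the light chain of MHC class I, read 6.41 and 4.82 in ES and 7.68 to 8.94 in GPSC. BC052688 was not above background in ES and was at least 5.605-fold higher in GPSC, Emp1 at least 2.91-fold, Casz1 2.53-fold and Mapt 2.39-fold.

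The largest falls after Fst, Wnt8a and Fgf8 were Npw (neuropeptide W, -2.48), the RNA-binding Zfp36l3 (-2.17), Slit3 (-1.999), Rtl8c (-1.99), the chemokine Ccl27a (-1.98), Kcnip3 (-1.97) and Mogat2 (-1.86). Npw, Slit3 and Ccl27a were above background on 2 of the 4 GPSC arrays and Kcnip3 on 1. Cortistatin (Cort) read 7.06 and 7.85 in ES and was not above background in GPSC, at least 2.72-fold less. Of the 170 kept genes that were higher, 70 were called in both lots, 63 in GPSC-B alone, 14 in GPSC-A alone and 23 in neither singly, and 29 were called in the interaction. Of the 80 lower ones, 25 were called in both lots and 8 in the interaction. With the replicate block 124 kept genes were lower. Without ES replicate 2 the counts were 56 higher and 19 lower, and without ES replicate 1 they were 202 and 128. On arrays scaled to a common median they were 140 and 9, and over all genes 268 and 18, so the share of higher genes moved from 71.6% to 93.7%; for the interaction it moved from 86.5% to 98.2%.

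The lots themselves differed in 23 genes at day 2, 10 higher and 13 lower in GPSC-B (0.0919% and 0.119%). The transcript 2210409E12Rik measured 9.62 and 9.78 in GPSC-B and 4.93 and 4.81 in GPSC-A, and Zfp365 9.98 and 9.51 against 5.10 and 5.44. Neither was above background in GPSC-A or in ES cells (5.23 and 4.56, and 5.04 and 5.79), so their GPSC minus ES differences came from GPSC-B. Trim25 was higher in GPSC-B by 3.19. Fbxo34 (-3.67) and Pkm (-2.50) were lower there, as were Apoa2 and Krt19, which were not above background in GPSC-B.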

How the data were processed

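RNA of 42 mouse samples was hybridised to Illumina BeadChips, 1 array per sample, in 20 groups. Extraction used a miRNeasy kit and labelling an Ambion MessageAmp kit with biotin, per the labels' protocols. The deposited non-normalised table gives a linear signal intensity and a detection p-value per probe and array. The submitters' processing notes name GenomeStudio. A series matrix deposited by the authors gives processed intensity on a linear scale, by a method that no source used here states, and served as an alternative.

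From the deposited intensity and detection p-values, log2 values were made by normexp background correction, quantile normalisation and an offset of 16 (neqc, limma 3.58.1, R 4.3.3). Probes with detection p under 0.01 on at least 2 arrays were kept (19251 of 45281, 2846 without a single symbol). The platform annotation gave 34885 probes 1 gene symbol, 18 several and 10378 none. The probe with the highest mean stood for a gene, giving 10879 genes. Genes called at day 2 had 229 further probes, of which 50 gave the same call, 4 the reverse and 175 none.

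A linear model with 20 groups over all 42 arrays (22 residual degrees of freedom) was fitted with limma. GPSC is the mean of both lots, and p-values were adjusted over all genes by Benjamini-Hochberg. A gene was set aside at NT when its mean difference reached 2-fold, whatever its p. For genes not above background on every array of one side, a lower bound of the day 2 fold is given, from the lowest detected signal of each array. A difference with some arrays not above background uses their normalised values. Genes named were all tested naive and epiblast list members, the largest kept changes and bounds, up to 4 called members per list and the largest differences between lots. Set-aside genes are named as such. Lox, Acta2, Thbs1, Col1a1, Col1a2, Col3a1, Pdgfra, Pdgfrb, Stat3, Socs3, Pou5f1, Evx1, Lhx1 and Mixl1 were named after their values were seen. The members and the 27 gene lists (445 of 626 genes tested) were chosen with earlier results of these data known. The fit has no block. The labels name no shared culture or batch behind a replicate number, but the deviations of same-numbered day 2 arrays correlated at 0.157 (ES and GPSC-A), 0.282 (ES and GPSC-B) and 0.560 (both lots), and over the 15 pairs of NT and day 2 groups from -0.038 to 0.565, 14 of them positive. The numbers may therefore pair the day 2 arrays, and the SEs and adjusted p-values given ignore such a pairing unless a block is named. Values with the number as a block stand beside stated calls that they change. The steps were tested on simulated data. Alternatives covered background, scaling, filter, probe choice, arrays fitted, replicate block, set-aside limit and each array left out. Promoters are from RefSeq, GRCm38.p6. Figures used Python 3.11.15 and matplotlib 3.10.9. The number of arrays limits the precision.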

Additional observations from a re-analysis of the deposited data

Results flagged for a closer look

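Each value here is an interaction called in limma's fit over all genes: the change from NT to day 2 in GPSC minus that in ES cells, on the log2 scale. It marks a difference between cell groups under the same contrast, and the calls depend on ES replicate 2 of day 2.

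In the naive list these were Klf4 (2.87), Klf5 (1.97), Esrrb (3.11), Tfcp2l1 (4.25), Zfp42 (2.63), Prdm14 (3.18), Nr5a2 (2.61), Tcl1 (4.17), Fbxo15 (2.07), Pecam1 (2.36) and Jam2 (3.02). All of them but Fbxo15 and Pecam1 had been set aside at NT for lower levels in GPSC. Prdm14, Nr5a2 and Tcl1 moved by 0.33, 0.23 and 0.76 in GPSC, while they moved by -2.85, -2.38 and -3.41 in ES. Among epiblast, streak and signalling genes they were Fst (-2.28), Wnt8a (-2.16), Eomes (-2.36) and Pcsk6 (1.21).

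Matrix and surface genes followed with Bgn (3.24), Tnc (3.76), Mmp3 (3.69), Icam1 (2.79) and Vegfa (2.08). Mmp3, a matrix protease, rose by 2.36 in GPSC and moved by -1.32 in ES cells. Further kept genes with a smaller fall in GPSC were Tfap2c (2.01), Acsbg3 (2.68), Slc28a1 (2.48), BC052688 (2.81), Mylpf (2.63), Fcgrt (2.40) and Folr1 (2.34). The kept gene 2210409E12Rik (2.57) was above background at day 2 in GPSC-B alone, 4.83 above GPSC-A. Its value, a mean of both lots, thus does not describe each lot.

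Genes that gained more in ES cells were Cort (-1.98), Cxxc4 (-1.88), Sox14 (-1.76), Nudt7 (-1.52) and Odf3b (-1.51). Cxxc4, an inhibitor of Wnt signalling, rose by 2.51 in ES and moved by 0.63 in GPSC. In the interaction, second probes of Cxxc4 (-0.10), Nudt7 (-0.29), Vegfa (0.016), Pcsk6 (0.047), Mylpf (1.48), Fcgrt (1.25) and Folr1 (0.63) were not called. Further probes of Mmp3 (2.86) and Wnt8a (-2.07 and -2.02) were called the same way. Psmd8 (3.36), a proteasome subunit, and Vps35 (3.27), of the retromer, had been set aside at NT. At day 2 Psmd8 was at least 28.5-fold higher in GPSC and Vps35 differed by 5.96, but a second Vps35 probe differed by 0.32 at day 2 and by 0.72 in the interaction and was not called. Of the genes above, Psmd8, BC052688 and 2210409E12Rik were not above background in ES cells at day 2, nor Cort and Eomes in GPSC.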

How the results depend on the processing

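The day 2 comparison rests most on ES replicate 2. Leaving out 1 array at a time gave 193 to 501 genes called at day 2 (437 with all), 24 to 149 in the interaction (96), 218 to 358 at NT (352), 144 to 356 in GPSC-A against ES (298), 188 to 435 in GPSC-B against ES (378), 8 to 26 between lots (23), 470 to 886 from NT to day 2 in ES (873), 190 to 331 in GPSC-A (321) and 55 to 258 in GPSC-B (180), 1432 to 1631 from day 2 to day 7 in GPSC (1535) and 1341 to 1703 from NT to day 7 in ES (1692). Kept genes numbered 56 to 202 higher and 19 to 128 lower, naive members 2 to 11 at day 2 and 3 to 11 in the interaction, and the naive median ran from 0.70 to 1.39, positive throughout. Over all genes, the day 2, interaction, single-lot and kept counts were lowest without ES replicate 2 and highest without ES replicate 1 of day 2. The most naive members at day 2 came without a GPSC-B array of NT.

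Counts that moved by over 1.5 times follow in the order day 2, NT, interaction, GPSC-A, GPSC-B, lots, change in ES, in GPSC-A, in GPSC-B, GPSC day 7, ES day 7, kept higher, kept lower, leaving out those that moved less. Scaling to a common median gave 286, 139, 56, 135 (GPSC-A), 10 (lots), 532, 89, 62, 943 (ES day 7) and 9 (kept lower). No background correction gave 182, 154, 164 (GPSC-A), 203, 417 (change in ES), 179, 649 (GPSC day 7), 883, 73 and 22, with a naive median of 0.67. The authors' matrix gave 203, 164, 178 (GPSC-A), 220, 454 (change in ES), 205, 707 (GPSC day 7), 935, 83 and 29, with a naive median of 0.70. The 12 NT and day 2 arrays alone gave 241, 170, 8, 141, 189, 6, 505, 138, 47, 82 (kept higher) and 27, with 3 naive interactions. The 6 day 2 arrays alone, as 3 groups, gave 129, 65 (GPSC-A), 90, 1 (lots), 29 (kept higher), 5 and 2 naive members, and with GPSC as 1 group 174, 47 (kept higher), 13 and 5 naive members. These fits have fewer arrays. Without a minimum fold 2611 genes changed by day 7 in GPSC.

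With the replicate block, 554 genes were called at day 2, 152 in the interaction and 124 kept genes lower, and of the 129 named genes tested, calls were added in 12 cases (Klf4 at day 2 among them) and lost in 0; with the replicate block within line, 524, 281 in the interaction, 44 between lots, 521 changed in GPSC-A and 341 in GPSC-B. GPSC-A alone gave 91 kept genes higher, 45 lower and 7 naive interactions. GPSC-B alone gave 48 interactions, 7 of them naive, and a naive median of 1.48. Setting aside at 1.5-fold left 97 kept genes higher, and setting none aside 313 higher and 124 lower. With GPSC-A alone 2210409E12Rik (-0.029) and Zfp365 (-0.14) turned direction at day 2, by the construction of that mean. For the other moves the cause was not tested. Slide and scan were not run as batches, since no label or header used here names them. Signals near the negative controls have no order.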
